A study of Mus musculus with 12 samples.

Results

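The comparison asks whether the combined loss of p300 and CBP moves each gene by the sum of what the single losses do. All 12 of the 12 RNA-seq libraries entered the comparison, 3 in each of 4 groups of B16F10 cells, a mouse melanoma line that makes melanin. The groups were the unedited control line, cells labelled as Ep300 knockout (Ep300 encodes p300), cells labelled as Crebbp knockout (Crebbp encodes CBP) and cells labelled as knockout of both genes. All were grown in the same medium with 10% serum and given no treatment. How the genes were disrupted and whether a group is 1 clone, a pool or separate cultures is not given in the sources used here, so the p-values measure the spread among these libraries. Of 54752 annotated genes, 18434 had enough counts to be tested.

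p300 and CBP are paralogous lysine acetyltransferases. They are recruited by transcription factors to enhancers and promoters, where they acetylate histone tails and carry bromodomains that read acetylated lysine. Their substrates and partners overlap widely, so one protein can often stand in for the other. In melanocytes both are coactivators of MITF, the factor that drives the pigment genes, and in most cells both serve the CREB, AP-1, p53 and interferon pathways.

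For each gene the change in either single knockout and in the double knockout was taken against the control on the log2 scale. The quantity tested, called the interaction here, was the double-knockout change minus the sum of both single changes. A gene was above the sum when the interaction was positive with an adjusted p under 0.05 in edgeR's quasi-likelihood test, and below the sum when it was negative. A gene was on the sum when it was not called and the 95% interval of its interaction lay within a 1.5-fold change either way, which is 0.58 on the log2 scale. The remaining genes were undetermined. Adding log2 changes means multiplying fold changes. Levels are given in CPM, the counts of a gene scaled to a common library size after TMM normalisation.

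The group labels were first set against the targeted transcripts. Crebbp (chr16:4081328-4213997, GRCm38) stood at 69.5, 56.7 and 67.9 CPM in the control libraries, 69.1, 80.1 and 92.8 in the Ep300 knockout, 36.8, 36.3 and 30.3 in the Crebbp knockout and 66.2, 68.7 and 57.1 in the double knockout. It was thus low only in the 3 libraries labelled as Crebbp knockout (-0.91, adjusted p = 0.00053), and the double-knockout libraries overlapped the control (-0.02, adjusted p = 0.92). Its interaction was 0.57 ± 0.16 (SE; adjusted p = 0.035), a call lost in 9 of 21 alternative analyses. Ep300 (chr15:81585351-81652077) had 98.5, 85.5 and 99.2 CPM in the control, 77.5, 82.9 and 94.7 in the Ep300 knockout, 111, 111 and 89.9 in the Crebbp knockout and 146, 160 and 138 in the double knockout. The Ep300 transcript was not detectably lower in the Ep300 knockout (-0.15, adjusted p = 0.38) and all 3 double-knockout libraries lay above every other library, with an interaction of 0.66 ± 0.14 (adjusted p = 0.008). Gene-level counts do not show whether a transcript still encodes protein, so loss of either protein was not measured, and each group is named below by its label. All groups expressed the melanocyte markers: the 7 genes summed to 19440 to 21390 CPM in the control, 14300 to 15020 in the Ep300 knockout, 18350 to 19160 in the Crebbp knockout and 6524 to 6692 in the double knockout.

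The interaction was called for 1897 genes, 10.3% of those tested. Of these, 983 genes (5.33%) lay above the sum and 914 (4.96%) below it, 7520 (40.8%) lay on it, and 9017 (48.9%) were undetermined. At least 1.5-fold above the sum were 557 called genes (3.02%), and at least 1.5-fold below it 558 (3.03%). The share on the sum followed the count level: it was 0.11% and 21.1% in the lower 2 quartiles of genes by mean CPM and 70.0% and 72.0% in the upper 2, where the median levels were 22.3 and 93.8 CPM. In the upper 2 quartiles 8.70% and 4.30% were above the sum and 5.71% and 8.35% below it. Above-sum genes were 51.8% of all calls. With scaling by library totals alone, which moved the median interaction of all genes to 0.13, that share was 71.2%, and when changes in CPM were added in place of log2 changes it was 69.5%. Leaving out 1 library moved the counts by over 1.5 times for several libraries. The genes above the sum were then 655 without control replicate 1, 653 without control replicate 3, 631 without Ep300-knockout replicate 2 and 602 without double-knockout replicate 2. The genes below the sum were 542, 475, 512 and 517 in the same order, 606 and 567 without double-knockout replicates 1 and 3, and 1498 without control replicate 2.

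In most called interactions the double knockout itself was called against control in the direction of the interaction, of which the double-knockout change is a term. In 836 genes (44.1% of the calls) the double knockout was higher than control by more than the sum, and in 702 (37.0%) it was lower by more than the sum. A smaller group, the smaller falls, held 91 genes above the sum called lower but not higher in a single knockout, and not higher in the double knockout. The smaller rises were 81 genes below the sum called higher but not lower in a single knockout, and not lower in the double knockout. The median double-knockout changes were -0.15 and 0.08. Some genes still differed from control there: 29 genes above the sum were called lower in the double knockout, and 25 below it were called higher. The other 187 calls (9.86%) had none of these shapes. Of the 836 larger rises, 428 (51.2%) were called in neither single knockout. Another 332 were called in the Ep300 knockout alone, 11 in the Crebbp knockout alone and 65 in both. Of the 702 larger falls, 363 (51.7%) were called in neither single knockout. Both shares were under that of all genes called in the double knockout against control, where 6237 (68.5%) were called in neither. Of 9102 genes called in the double knockout against control (49.4% of those tested, 24.7% higher and 24.6% lower), 4024 (44.2%, against 40.8% of all genes) were on the sum, 2106 higher and 1918 lower. Of these 4024 genes, 2886 (71.7%) were called in neither single knockout.

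**Figure D1:**
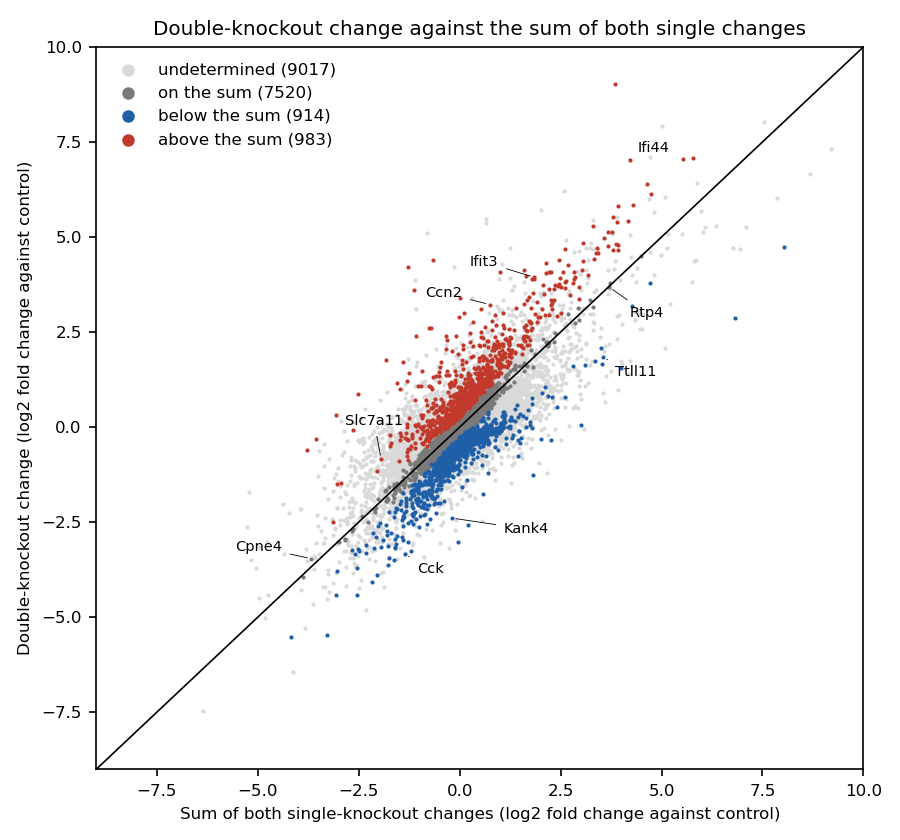
Each point is 1 of 18434 tested genes, placed by the sum of both single-knockout changes (horizontal) and by the double-knockout change (vertical), both as log2 fold change against control; the line marks equality. The 983 genes above the sum lie mostly at rises, the 914 below it mostly at falls, and Rtp4 and Cpne4 sit on or near the line at large changes.

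The interaction also equals the difference between 2 changes that go with the Crebbp-knockout label, one in cells without and one in cells with the Ep300-knockout label. As the transcripts above show, the labels do not measure loss of either protein. Against control, the Crebbp knockout had 281 genes higher (1.52% of those tested) and 296 lower (1.61%), 3.13% in either direction. Against the Ep300 knockout, the double knockout had 3315 higher and 3061 lower (16.6%), 34.6% in either direction. The Ep300 knockout had 1341 genes higher (7.27%) and 1628 lower (8.83%) than control, 16.1% in all, and 43.2% of genes were called between the double and the Crebbp knockout. These comparisons share libraries. The median change over interferon-stimulated genes was 0.37 in the first setting and 1.51 in the second. For melanin and melanosome genes the medians were -0.16 and -1.0, for cholesterol synthesis -0.02 and -0.45, and for genes of the integrated stress response -0.04 and 0.28. Over all tested genes both medians were -0.01.

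**Figure D2:**
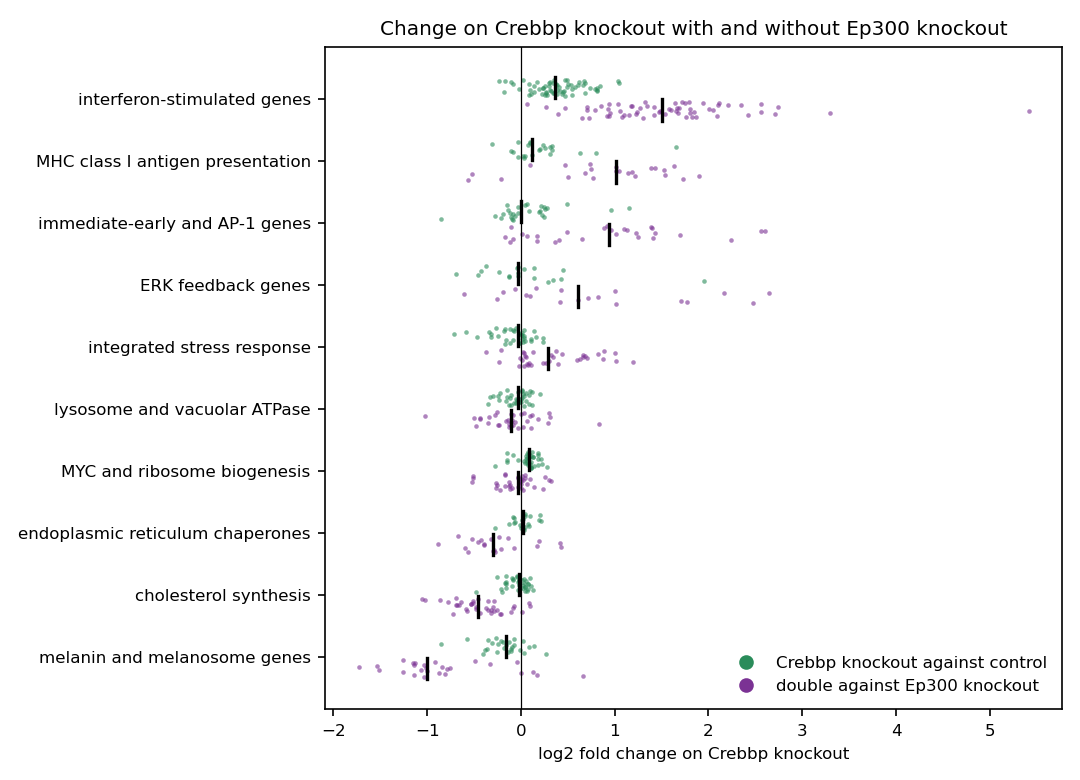
Points are the tested members of 10 gene lists, placed by their log2 fold change for the Crebbp knockout against control (green) and for the double knockout against the Ep300 knockout (purple); black bars are medians. The purple medians lie at 1.51 for interferon-stimulated genes and -1.0 for melanin and melanosome genes, while the green medians lie at 0.37 and -0.16.

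Interferon-stimulated genes, the antiviral effectors switched on by STAT and IRF factors, were the list with the largest share above the sum. Of 64 tested members, 56 (87.5%, against 5.33% of all genes) were above the sum, none was below, 5 were on it and 3 were undetermined. All 64 were higher in the double knockout than in control. Their median change was 2.15 in the Ep300 knockout, 0.37 in the Crebbp knockout and 3.70 in the double knockout, where the median sum was 2.54.

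Ifit3, an antiviral RNA-binding protein, had 17.3, 19.6 and 17.9 CPM in the control, 65.9, 66.1 and 62.6 in the Ep300 knockout, 19.0, 18.7 and 17.7 in the Crebbp knockout and 279, 293 and 267 in the double knockout. The Crebbp-knockout libraries overlapped the control, and every double-knockout library was about 4 times the 65.8 CPM that the sum gives. The interaction was 2.09 ± 0.09 (adjusted p = 2.1e-08). Its neighbour Ifit3b had a closely similar interaction of 2.04, and reads of these near-identical genes may have been split between them. Ifi44, an interferon-induced protein, had an interaction of 2.83 ± 0.26 (adjusted p = 8.8e-06). It was between 0.444 and 1.01 CPM in the control, between 9.87 and 11.6 in the Ep300 knockout, between 1.02 and 1.15 in the Crebbp knockout and between 99.3 and 108 in the double knockout. Oasl1, a relative of the oligoadenylate synthetases that restrains IRF7 translation, rose by 4.69 where the sum was 2.61.

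Rtp4, an interferon-induced chaperone of receptors, was one of the 5 interferon-stimulated genes on the sum. It had 11.4, 12.5 and 11.3 CPM in the control, 90.3, 85.6 and 84.6 in the Ep300 knockout, 21.6, 22.2 and 17.6 in the Crebbp knockout and 151, 148 and 151 in the double knockout. The groups did not overlap, the sum gave 152 CPM, and the interaction was -0.02 ± 0.11 (95% interval -0.26 to 0.22). When changes in CPM were added instead, Rtp4 lay 54.4 CPM above the sum (adjusted p = 0.00013). Its place on the sum therefore holds for fold changes only.

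Promoters were searched for the core interferon response element, on both strands and as GAAA, any 2 bases and GAAA. This motif was found in 57.8% of the 45 interferon genes above the sum that had a promoter in the RefSeq table (GRCm38.p6; 250 bases before to 50 after the start), in 8.6% of all genes above the sum, and in 3.5% of all 27025 promoters. Without the interferon list, 5.7% of genes above the sum held it. Among promoters of all tested genes the share was 3.0%. Oasl1 and Ifi44 had no match in the 250 bases before the start. Ifit3 and Isg15 are shown as examples with a match, in stretches that run 5′ to 3′ on the gene's strand up to the base before the start, and capitals mark each match on either strand. Ifit3 (chr19:34583363-34583528, plus strand) has 2 matches. Isg15 (chr4:156200819-156200918, minus strand), a ubiquitin-like antiviral protein chosen here after its values were seen, has 3 overlapping matches and an interaction of 0.74 ± 0.09.
Ifit3: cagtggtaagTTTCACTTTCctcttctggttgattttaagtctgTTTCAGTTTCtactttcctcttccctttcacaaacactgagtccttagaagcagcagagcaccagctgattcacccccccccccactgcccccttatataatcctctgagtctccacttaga
Isg15: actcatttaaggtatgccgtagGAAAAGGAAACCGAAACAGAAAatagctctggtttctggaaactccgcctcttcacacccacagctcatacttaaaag

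Antigen presentation and immune signalling genes were found above the sum as well. Of 23 genes of MHC class I presentation, 12 (52.2%) were above the sum, 1 below and 2 on it, with a median interaction of 0.75. Nlrc5, the transactivator of MHC class I genes, had 1.83, 1.85 and 1.80 CPM in the control, 4.18, 4.37 and 5.53 in the Ep300 knockout, 1.53, 1.66 and 1.24 in the Crebbp knockout and 15.4, 15.7 and 12.5 in the double knockout. The sum gave 3.81 CPM, below all 3 double-knockout libraries, and the interaction was 1.93 ± 0.20 (adjusted p = 2.7e-05). H2-K1, a classical class I heavy chain whose reads may be shared with related H2 genes, rose by 2.28 where the sum was 1.21. B2m, the class I light chain, had a smaller interaction of 0.44 ± 0.10 (adjusted p = 0.014), which missed the threshold without Ep300-knockout replicate 2 (adjusted p = 0.051). The chaperones of the same list did not follow: Calr was below the sum (-0.60 ± 0.12) and Canx was on it.

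Cd274, which encodes the checkpoint ligand PD-L1, had 3.58, 3.71 and 3.65 CPM in the control, 4.59, 4.42 and 4.94 in the Ep300 knockout, 4.42, 4.09 and 4.38 in the Crebbp knockout and 9.93, 11.0 and 10.8 in the double knockout. Every knockout library was above every control library, and the double knockout was above the 5.49 CPM of the sum by 0.95 ± 0.13 (adjusted p = 0.00022). Of 17 tested immune ligands 5 were above the sum, none was below, and 10 were undetermined. Among 16 chemokines and cytokines 7 were above the sum and none was below or on it. Cxcl10, an interferon-induced T-cell attractant, rose by 2.54 where the sum was 1.35. Ccl5, another T-cell attractant, went against its change in the Ep300 knockout, where it was lower (-0.86). Its change was 0.14 in the Crebbp knockout and 1.05 in the double knockout, an interaction of 1.77 ± 0.14 (adjusted p = 2.7e-06). Immune cell markers summed to 3.35 to 4.37 CPM in the control and 6.28 to 7.37 in the double knockout. Only 2 of the 12 could be tested, Cd68 was 1 of them and itself above the sum (0.99), and Ptprc and Cd3e never had more than 1 count in a library.

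Immediate-early and growth-signal genes formed another set above the sum. Of 28 immediate-early and AP-1 genes 17 were above the sum, 1 below and 7 on it, and the median change was 1.42 in the double knockout where the median sum was 0.52. Atf3, a stress-induced bZIP factor, had 15.9, 18.3 and 17.6 CPM in the control, 24.2, 23.4 and 22.7 in the Ep300 knockout, 17.3, 15.2 and 15.3 in the Crebbp knockout and 77.5, 74.9 and 74.8 in the double knockout. The double-knockout libraries lay far above the 21.6 CPM of the sum, an interaction of 1.81 ± 0.10 (adjusted p = 8.3e-08). Nr4a1, an orphan nuclear receptor induced by many stimuli, was -0.02 and -0.09 from control in the single knockouts and rose by 1.23 in the double knockout. Myc was the immediate-early gene below the sum (-0.40 ± 0.11, adjusted p = 0.036), a call lost in 10 of 21 alternatives. The AP-1 motif TGA, any base and TCA, searched on both strands, was in 0 of 14 promoters found for members of this list above the sum. It was in 0 of 7 for those on it, in 7.9% of all promoters and in 5.0% of promoters of tested genes.

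Of 19 ERK feedback and output genes 10 were above the sum, 1 below and 6 on it. Lif, a cytokine of the interleukin-6 family, had 0.457, 0.297 and 0.662 CPM in the control, 1.00, 1.39 and 1.49 in the Ep300 knockout, 0.339, 0.373 and 0.363 in the Crebbp knockout and 8.49, 7.89 and 8.10 in the double knockout. The sum gave 0.969 CPM and the interaction was 3.07 ± 0.32 (adjusted p = 2.7e-05). Etv5, an ETS factor induced by ERK, was 0.05 and 0.43 from control in the single knockouts and rose by 1.83 in the double knockout. Epha2, a receptor tyrosine kinase, was on the sum despite a large rise: its change was 3.37 in the Ep300 knockout, 0.34 in the Crebbp knockout and 3.78 in the double knockout.

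YAP-TEAD, TGF-beta and matrix genes were split between the classes. Of 24 YAP-TEAD genes 6 were above the sum, 1 below and 12 on it. Ccn2, a matricellular growth factor, had 4.33, 4.65 and 5.63 CPM in the control, 9.27, 8.55 and 8.36 in the Ep300 knockout, 4.86, 4.63 and 4.22 in the Crebbp knockout and 45.7, 43.0 and 48.0 in the double knockout. The sum gave 8.19 CPM, and the interaction of 2.48 ± 0.14 was called with an adjusted p of 8.3e-08. Its relative Ccn1 rose by 3.79 where the sum was 2.80. The TEAD motif GGAATG, searched on both strands, was in all 5 promoters found for YAP-TEAD genes above the sum. It was in 5 of 10 for those on it, against 14.6% of all promoters and 12.15% of promoters of tested genes. Ltbp1, which tethers latent TGF-beta to the matrix, rose by 2.01, 1.04 and 4.37 in the Ep300, Crebbp and double knockouts, an interaction of 1.33 ± 0.13 (adjusted p = 1.2e-05). Tgfb1, the ligand, had an interaction of 1.06 and Thbs1, which activates it, also 1.06.

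In the matrix list 6 of 31 genes were above the sum, 5 below and 8 on it, and 3 of those below were smaller rises. Col8a1, a short-chain collagen, had 4.93, 4.79 and 5.6 CPM in the control, 55.0, 50.1 and 51.7 in the Ep300 knockout, 13.5, 12.8 and 12.8 in the Crebbp knockout and 69.0, 72.1 and 72.8 in the double knockout. The groups did not overlap, but the double knockout fell short of the 133 CPM of the sum, an interaction of -0.90 ± 0.10 (adjusted p = 5.2e-05). With CPM added in place of log2 changes the direction turned: Col8a1 was then 11.1 CPM above the sum (adjusted p = 0.036). Col1a1, a fibrillar collagen chain, had 12.4, 12.4 and 16.6 CPM in the Ep300 knockout and 7.88, 9.07 and 7.49 in the double knockout, lower than with Ep300 knockout alone (interaction -1.46 ± 0.23, adjusted p = 0.00098). Fn1, fibronectin, was on the sum at 2.01, 0.95 and 2.82 in the Ep300, Crebbp and double knockouts, with an interaction of -0.14 ± 0.18. In CPM it lay 109 above the sum (adjusted p = 0.02). Fibroblast markers, a list that includes Col1a1, summed to 10.47 to 12.96 CPM in the control, 18.75 to 24.68 in the Ep300 knockout, 13.1 to 16.85 in the Crebbp knockout and 15.44 to 16.71 in the double knockout. Of the 10 markers 5 could be tested, Dcn and Lum never had more than 2 counts in a library, and the part of such cells in the matrix genes was not tested.

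**Figure D3:**
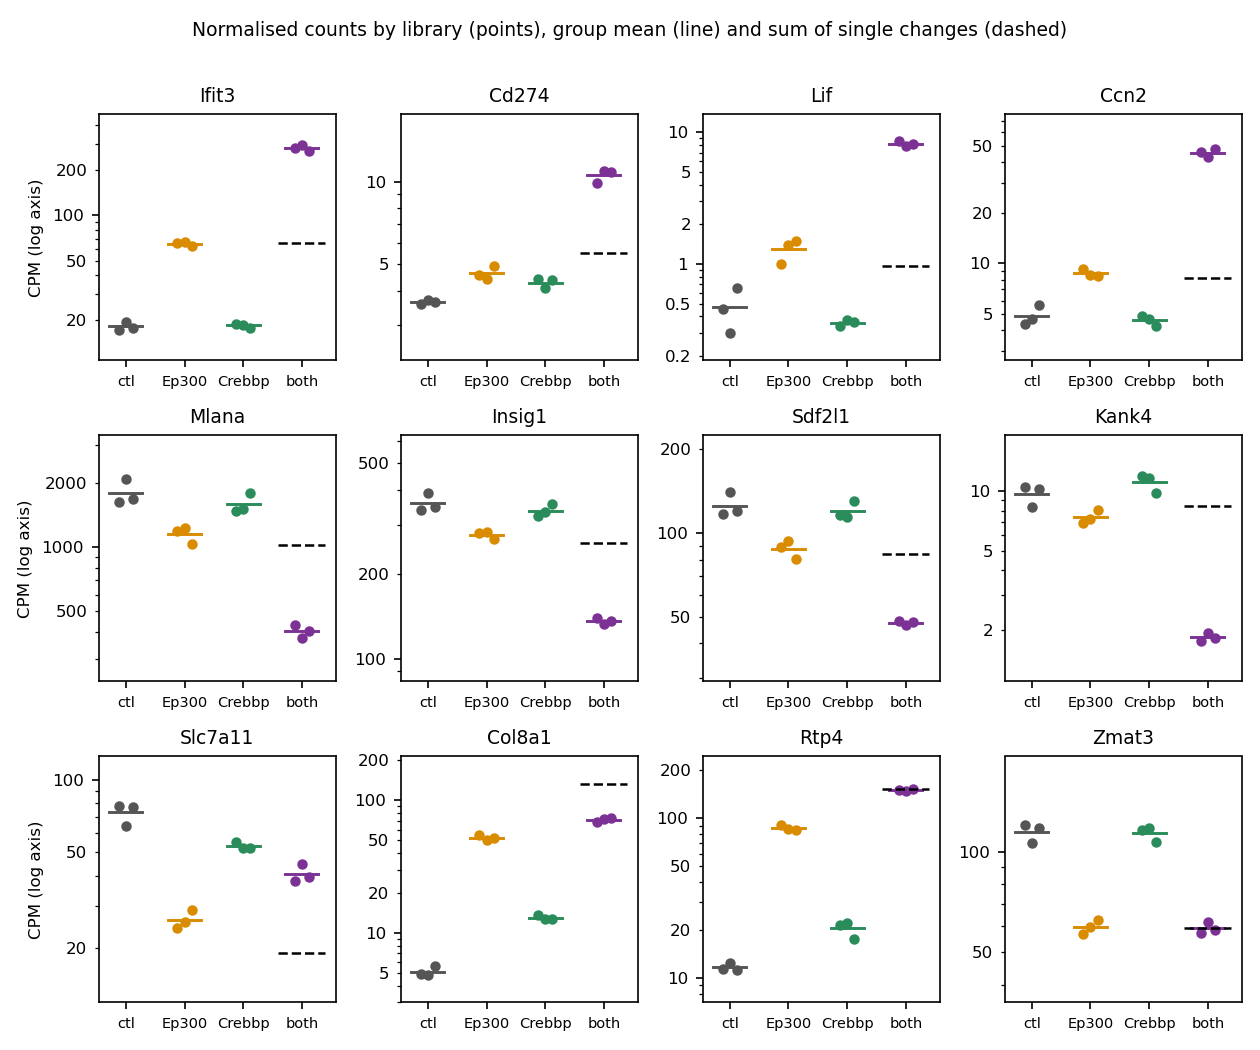
CPM in each library (points) and group mean (coloured line) for 12 genes, on log axes; groups are control (ctl), Ep300 knockout, Crebbp knockout and double knockout (both), with 3 libraries each. The dashed line over the double knockout is the level the sum of both log2 changes gives, for example 65.8 CPM for Ifit3, 133 for Col8a1 and 152 for Rtp4.

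Pigment genes lay below the sum. Of 27 melanin and melanosome genes 20 (74.1%, against 4.96% of all genes) were below the sum, none was above, 6 were on it and 1 was undetermined. All 20 were larger falls. Their median change was -0.58 in the Ep300 knockout, -0.16 in the Crebbp knockout and -1.70 in the double knockout, where the median sum was -0.82. When CPM were added instead of log2 changes, 12 of the 27 were below the sum.

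Mlana, a melanosome membrane protein, had 1631, 2086 and 1686 CPM in the control, 1198, 1225 and 1036 in the Ep300 knockout, 1479, 1509 and 1792 in the Crebbp knockout and 433, 376 and 405 in the double knockout. The Crebbp-knockout libraries overlapped the control, the double knockout lay under 1020 CPM, the level of the sum, and the interaction was -1.33 ± 0.16 (adjusted p = 9.8e-05). Pmel, which forms the fibrils that melanin is laid on, fell by 1.33 on the log2 scale in the double knockout where the sum was -0.17. Mitf, their transcription factor, had 933, 942 and 901 CPM in the control, 711, 654 and 639 in the Ep300 knockout, 840, 842 and 848 in the Crebbp knockout and 354, 365 and 347 in the double knockout. The 4 groups did not overlap and the sum gave 609 CPM (interaction -0.78 ± 0.10, adjusted p = 0.00017). Sox10, the neural crest factor that drives Mitf, had an interaction of -0.41 ± 0.14 that was not called (adjusted p = 0.081). Among the melanosome genes on the sum was Myo5a, the motor that carries melanosomes, at -0.69, -0.13 and -1.02.

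The M-box motif TCATGTG, a MITF binding sequence, was searched on both strands. It was in 6 of 15 promoters found for melanin and melanosome genes below the sum and in 3.8% of all promoters. Among promoters of tested genes the share was 2.3%. Trpm1 (chr7:64153683-64153834, plus strand), a melanocyte cation channel, and Slc24a5 (chr2:125068027-125068126, plus strand), a melanosomal cation exchanger, are shown as the pigment genes named by rule with a match, in capitals on either strand. Trpm1 had an interaction of -1.29 ± 0.10 and Slc24a5 of -1.16 ± 0.08.
Trpm1: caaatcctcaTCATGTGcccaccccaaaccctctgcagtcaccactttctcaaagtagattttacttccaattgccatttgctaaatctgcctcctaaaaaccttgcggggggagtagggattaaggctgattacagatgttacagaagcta
Slc24a5: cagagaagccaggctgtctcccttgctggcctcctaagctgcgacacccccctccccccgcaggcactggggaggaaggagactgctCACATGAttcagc

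Cholesterol synthesis genes, targets of the sterol-sensing SREBP factors, were the larger metabolic group below the sum. Of 37 tested members 22 were below the sum, none above and 12 on it, and the median change was -0.79 in the double knockout where the median sum was -0.33. The count below was 12 with scaling by library totals and 14 with CPM added. Insig1, which holds SREBP in the endoplasmic reticulum, had 340, 391 and 349 CPM in the control, 280, 284 and 266 in the Ep300 knockout, 322, 333 and 356 in the Crebbp knockout and 139, 133 and 136 in the double knockout. The Crebbp knockout overlapped the control and the sum gave 259 CPM (interaction -0.93 ± 0.10, adjusted p = 4.9e-05). Sqle, squalene epoxidase, was on the sum at -0.44, -0.16 and -0.79. The sterol motif ATCAC, any base and CCAC, searched on both strands, was in 0 of 13 promoters found for members below the sum. It was in 0 of 11 for those on it, in 0.25% of all promoters and in 0.16% of promoters of tested genes.

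Of 21 chaperones of the endoplasmic reticulum 10 were below the sum, 1 above and 8 on it, and 6 were below with scaling by library totals. Sdf2l1, a cofactor of the chaperone BiP, had 116, 140 and 120 CPM in the control, 88.9, 93.2 and 80.8 in the Ep300 knockout, 116, 114 and 130 in the Crebbp knockout and 48.2, 46.7 and 47.7 in the double knockout. All double-knockout libraries lay under the 84.0 CPM of the sum (interaction -0.82 ± 0.12, adjusted p = 0.00036). Ern1, the stress sensor IRE1 of the same organelle, was the member above the sum (0.56 ± 0.13, adjusted p = 0.012).

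Genes of the integrated stress response, the ATF4 programme of amino acid supply, were on or above the sum where they were placed. In the double knockout 10 of them were called higher than control and 16 lower. Of 36 tested members 15 were above the sum, none below and 18 on it, and the median change was -0.09 in the double knockout where the median sum was -0.35. Of the 15, 9 were larger rises and 5 were smaller falls. Slc7a11, the cystine importer, had 78.3, 64.5 and 77.2 CPM in the control, 24.2, 25.6 and 28.9 in the Ep300 knockout, 55.2, 52.3 and 52.2 in the Crebbp knockout and 37.9, 44.6 and 39.7 in the double knockout. The double knockout thus lay between both single knockouts and above the 19.0 CPM of the sum, an interaction of 1.10 ± 0.13 (adjusted p = 7e-05). Trib3, a pseudokinase induced by ATF4, was -0.65 and -0.34 from control in the Ep300 and Crebbp knockouts and 0.00 in the double knockout. Atf5, a relative of ATF4, was -0.31 and -0.18 in the single knockouts and rose by 0.52 in the double knockout.

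The ATF4 motif, searched on both strands as TGATG, any base and AA, was in 7 of 14 promoters found for integrated stress response genes above the sum. It was in 2 of 13 for those on it, in 4.0% of all promoters and in 2.4% of promoters of tested genes. Slc7a11 (chr3:50443614-50443713, minus strand) is shown because its promoter holds 2 matches, in capitals on either strand.
Slc7a11: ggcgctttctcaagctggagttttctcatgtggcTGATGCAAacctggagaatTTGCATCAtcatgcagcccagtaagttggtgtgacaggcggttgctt

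G2/M and DNA replication genes were on the sum or below it, in shares that depended on the settings. Of 37 G2/M genes 24 were on the sum and 10 below, and of 39 DNA replication genes 23 were on it and 9 below, with none above in either list. With offsets for exon length and GC content, 26 G2/M genes were below and 10 on the sum, and 24 DNA replication genes were below and 14 on it. The counts below also moved with single libraries: for DNA replication genes they were 18 without control replicate 2, 11 without Ep300-knockout replicate 3 and 1 to 6 without any other library. For G2/M genes they were 4 without control replicate 3, 5 without Ep300-knockout replicate 2, 6 without control replicate 1, double-knockout replicate 1 or double-knockout replicate 2, and 16 without control replicate 2. Aurkb, a mitotic kinase, was -0.06 and 0.11 in the single knockouts and fell by 0.44 in the double knockout (interaction -0.50 ± 0.08, adjusted p = 0.00089). Cdk2, which drives entry into S phase and is a MITF target in pigment cells, fell by 1.16 in the double knockout where the sum was -0.29 (interaction -0.88 ± 0.09, adjusted p = 1.7e-05). Of 20 G1 genes 3 were above the sum and 3 below, among those above cyclin D1 (Ccnd1) and the CDK inhibitor p21 (Cdkn1a). Ccnd1 was lower in the Crebbp knockout (-0.38) and 0.14 from control in the double knockout, and Cdkn1a was -0.27, -0.20 and 0.05.

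Of 35 lysosomal genes 33 (94.3%) were on the sum, against 40.8% of all genes and 72.0% of those in the upper quartile by CPM, where the median level of the list (142 CPM) lies. Ribosome biogenesis genes (27 of 35, 77.1%) and respiratory chain genes (25 of 38, 65.8%) were near that share. Respiratory chain genes on the sum numbered 36 without Crebbp-knockout replicate 3. Lysosomal genes on the sum numbered 27 with scaling by library totals, 28 with length and GC offsets and 29 with DESeq2. The changes of this list were small, and a gene that hardly changes also lies on the sum. The median was -0.06 in the Ep300 knockout, -0.03 in the Crebbp knockout and -0.12 in the double knockout. Against control, 4 of the 35 were called higher and 14 lower in the double knockout. Of all genes on the sum, 3496 were not called in that comparison. Ctsd, the lysosomal protease cathepsin D, had 387, 403 and 376 CPM in the control, 237, 229 and 238 in the Ep300 knockout, 293, 304 and 315 in the Crebbp knockout and 162, 173 and 169 in the double knockout. The groups did not overlap, the sum gave 184 CPM, and the interaction was -0.13 ± 0.09 (95% interval -0.32 to 0.07).

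Genes on the sum reached it in different ways. Zmat3, a p53-induced RNA-binding protein, had 121, 106 and 118 CPM in the control, 56.6, 59.6 and 62.3 in the Ep300 knockout, 116, 118 and 107 in the Crebbp knockout and 57.2, 61.4 and 58.4 in the double knockout. Its whole change was that of the Ep300 knockout, and the interaction was 0.00 ± 0.10. Lgals3, the lectin galectin-3, showed the reverse, with -0.09 in the Ep300 knockout, -0.58 in the Crebbp knockout and -0.64 in the double knockout. Rapgef3, a cAMP-activated exchange factor for Rap1, fell by similar amounts in both, with -1.08, -0.99 and -2.14 in the Ep300, Crebbp and double knockouts. In CPM, where its level in each knockout was already low, it lay 3.44 above the sum (adjusted p = 0.01). Cpne4, a calcium-dependent membrane-binding protein, had the largest fall among the named genes on the sum (-3.46, with a sum of -3.67).

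**Figure D4:**
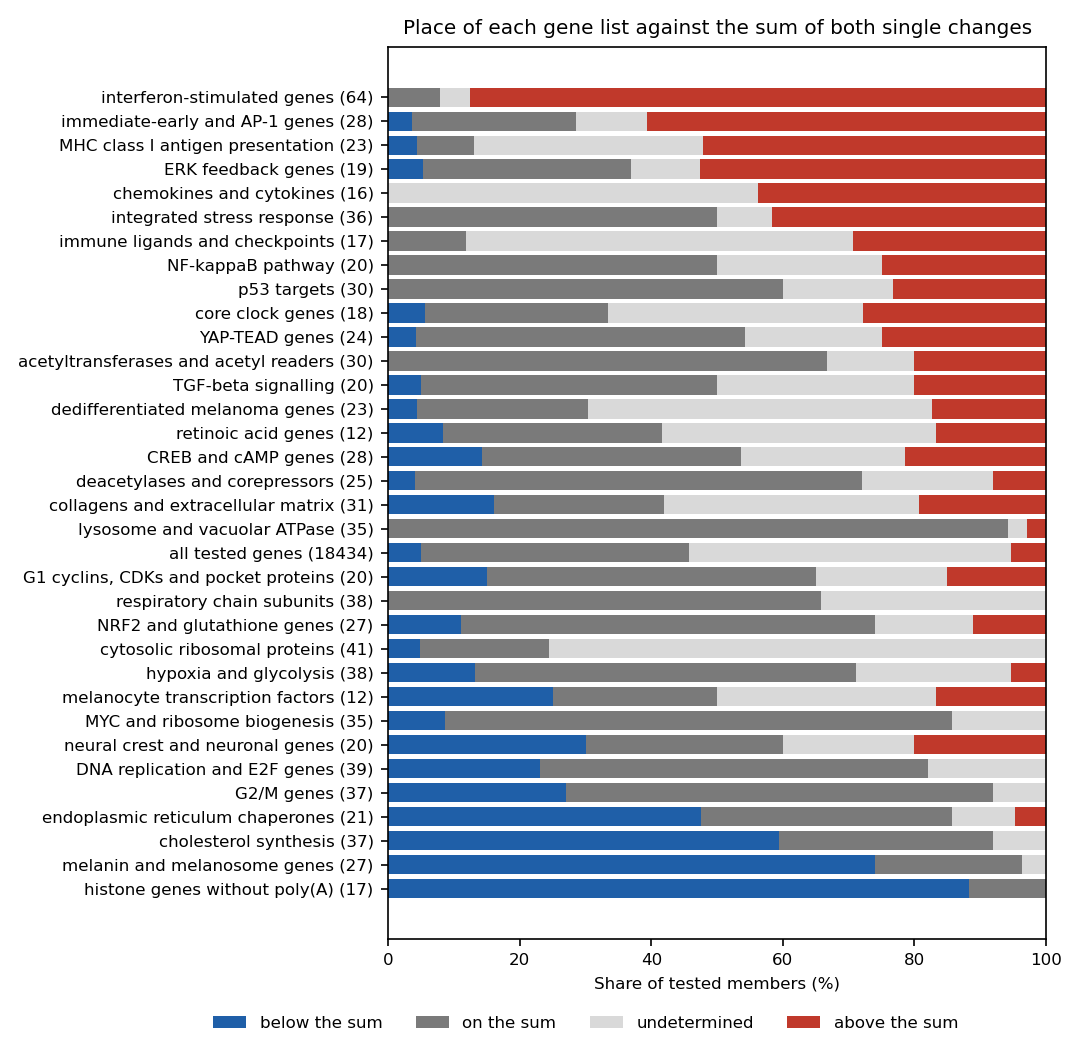
Each bar is a gene list with at least 10 tested members (number in brackets) and shows the share of members below, on, undetermined against and above the sum, in percent. Interferon-stimulated genes reach 87.5% above, melanin and melanosome genes 74.1% below and lysosomal genes 94.3% on the sum, beside 5.33%, 4.96% and 40.8% of all tested genes.

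The largest called interactions included genes with small and with large single changes. Kank4, a cytoskeletal adaptor of focal adhesions, had 10.6, 8.32 and 10.2 CPM in the control, 6.95, 7.23 and 8.04 in the Ep300 knockout, 11.9, 11.6 and 9.80 in the Crebbp knockout and 1.77, 1.94 and 1.84 in the double knockout. The double knockout lay far under the 8.47 CPM of the sum (interaction -2.19 ± 0.16, adjusted p = 8.1e-07). Tg, the thyroglobulin gene, fell by 3.03 where the sum was -1.29, and Gsta1, a glutathione transferase, by 3.09 where the sum was -1.58. With CPM added, neither Tg (adjusted p = 0.077) nor Gsta1 (adjusted p = 0.75) was called. Lgr6, an R-spondin receptor, rose by 2.95 where the sum was 0.87. Cck, the cholecystokinin precursor, changed in opposite directions in the single knockouts (-2.35 and 0.99) and fell by 3.34 in the double knockout (interaction -1.98 ± 0.17, adjusted p = 4.3e-06). Cyp26b1, which degrades retinoic acid, also changed in opposite directions in the single knockouts (-1.80 and 1.4). Unlike that of Cck, its fall in the double knockout (-1.30) was smaller than in the Ep300 knockout. Ttll11, a tubulin polyglutamylase, rose by 2.64 and 0.91 in the single knockouts and by 1.83 in the double knockout, and Ccdc13, a coiled-coil protein, was -1.47, -0.31 and -3.64 from control.

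Transcript type and RNA composition moved with the classes. Of 2095 tested pseudogenes 218 (10.4%) were below the sum and 10 above. With offsets for exon length and GC content, 51 were below and 64 above. Of 17 histone genes that lack poly(A) tails 15 were below the sum and 6 remained with those offsets, while 8 or 9 were called without control replicate 1 or 3, Ep300-knockout replicate 2, Crebbp-knockout replicate 3 or double-knockout replicate 2. Mitochondrial genes summed to 4.93% to 5.53% of the TMM-scaled library size, which differs from the raw total, in the control. The range was 4.24% to 5.38% in the Ep300 knockout, 3.78% to 7.02% in the Crebbp knockout and 2.69% to 3.27% in the double knockout. Of 19 tested mitochondrial genes 7 were below the sum. Genes above the sum had a median exon length of 5051 bases, those below 2360 and those on it 4757. The part of length and RNA composition in these counts was not separated from that of the knockouts beyond the offsets given.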

How the data were processed

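RNA from 12 libraries of B16F10 cells was sequenced with a stranded mRNA kit, per the labels' protocols. The deposited values are whole-number counts per gene; per the submitters' processing notes, which give no versions or roles, the authors used bcl2fastq, HISAT2 and HTSeq with the mm10 build. No source used here gives the annotation release or the strand setting of the counting, so overlapping genes and near-identical copies may share reads. Of the gene identifiers, 54723 of 54752 had a symbol in the GENCODE annotation of GRCm38.

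Counts were filtered (edgeR's filterByExpr), TMM-normalised and fitted with edgeR 4.0.16's quasi-likelihood F test (robust, R 4.3.3) over all 4 groups with no covariate. Each of 6 contrasts was adjusted by Benjamini-Hochberg over 18434 genes. Totals ran from 64257251 to 85604243 counts per library, TMM factors from 0.890 to 1.12 with the double knockout at the upper end, and the biological coefficient of variation was 9.46%. The median standard error was 0.172 for the interaction and 0.122 for the double-knockout change, so the interaction is the less precise of them. The fit was also run on simulated counts. These were drawn independently for each library from the fitted dispersions, so they cannot show how far single libraries move the calls.

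The members and the 33 gene lists (867 tested genes, 40 of them on more than 1 list) and 5 marker lists were chosen with earlier results of these data known, and no list was tested as a set. Genes named are Ep300, Crebbp, Mitf, Sox10, Cd274, B2m and Myc, the 8 largest interactions each way at a mean of at least 5 CPM, up to 2 members of each list above and 2 below the sum by smallest adjusted p, and the member on the sum with the largest called double-knockout change. Lists with no paragraph of their own are given by counts in the closing section. Alternatives were DESeq2 1.42.0, limma-voom (limma 3.58.1), other size factors and filters, length and GC offsets, a linear scale, a replicate block, other limits for the sum and leaving out each library. Promoter sequences are from RefSeq.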

Additional observations from a re-analysis of the deposited data

Results flagged for a closer look

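The 983 genes above the sum and the 914 genes below it were set apart because their change on Crebbp knockout differed, by the interaction test itself, between libraries without and with the Ep300-knockout label. The direction in most of these genes was that of the double-knockout change. Of the 983, 836 were called higher than control in the double knockout, against 24.7% of all tested genes. Of the 914, 702 were called lower, against 24.6%. The double-knockout change is itself a term of the interaction, and both use the same libraries.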

How the results depend on the processing

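The counts of genes above and below the sum depended on the settings more than their direction did: no gene called in the interaction was called in the opposite direction under any alternative on the log2 scale. Genes above the sum numbered 992 with limma-voom, 989 with DESeq2's size factors in edgeR, 1397 with DESeq2, 1255 with library totals, 1314 with length and GC offsets and 1229 on the linear scale. Genes below numbered 1432 with DESeq2, 508 with library totals, 1484 with no filter on low counts, 539 on the linear scale and 1358 with length and GC offsets, under which 942 genes above and 656 below were shared with the calls reported. Replicate numbers did not pair the libraries, since over 18 same-numbered pairs the correlation of deviations ran from -0.170 to 0.107; with the replicate block, 704 genes were above and 641 below. Leaving out 1 library gave 602 to 1363 genes above and 475 to 1498 below. Genes on the sum numbered 2270 with a narrower limit of 0.32 on the log2 scale and 10613 with a limit of 2-fold, and 6812 to 8171 when 1 library was left out; they were not counted on the linear scale. On that scale, where CPM changes are added, the direction turned for Rtp4 (54.4 CPM), Rapgef3 (3.44), Col8a1 (11.1), Fn1 (109) and Ndrg1 (1.05). For the named genes, 2649 results under alternatives kept their side of the threshold, 135 lost the call, 25 gained one and 5 turned. A change of sign was counted as a turn only where the reported or the alternative result was called. The cause of these moves was not tested. Over the alternatives other than the linear scale, 48 to 58 interferon-stimulated genes were above the sum and 18 to 21 melanin and melanosome genes below it. The interaction adds the error of 4 groups, and 48.9% of genes were undetermined, most of them of low count (median 0.54 CPM, against 37.1 for genes on the sum).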

Other observations

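Of 30 acetyltransferases and acetyl readers 20 (66.7%) were on the sum, near the 70.0% and 72.0% of all genes in the upper 2 quartiles by CPM, with 6 above and none below; the count above was 3 without control replicate 1 or 3, Ep300-knockout replicate 1 or 2, Crebbp-knockout replicate 3, or double-knockout replicate 1 or 2. Brd2, a bromodomain reader of acetylated histones, had 188, 179 and 184 CPM in the control, 227, 236 and 271 in the Ep300 knockout, 227, 238 and 208 in the Crebbp knockout and 452, 460 and 445 in the double knockout. Both single knockouts lay above the control, and the double knockout lay above the 299 CPM of the sum (interaction 0.59 ± 0.11, adjusted p = 0.0031). Cited2, which competes with HIF for a domain of p300 and CBP, was -0.20 and 0.04 from control in the single knockouts and rose by 0.49 in the double knockout. Smarca2, a chromatin remodelling ATPase, was on the sum at 0.35, 0.37 and 0.95.

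CREB and cAMP genes, the class CBP is named for, went both ways: of 28 tested, 6 were above the sum, 4 below and 11 on it, with 2 below without double-knockout replicate 3. Akap12, a scaffold for protein kinase A, rose by 3.74 where the sum was 2.37, and Prkar2b, a regulatory subunit of that kinase, fell by 1.73 where the sum was -0.78. The CREB motif TGACGTCA was in 0 of 5 promoters found for members above the sum and 1 of 9 for those on it. It was in 1.9% of all promoters and 3.1% of promoters of tested genes. Of 30 p53 targets 7 were above the sum, none below and 18 on it; Plk2, a polo-like kinase, was 0.03 and 0.09 in the single knockouts and rose in the double knockout (interaction 1.13 ± 0.10). Of 27 NRF2 and glutathione genes 17 were on the sum, among them Gstm1 at -1.13, -0.67 and -1.87, while Hmox1, heme oxygenase, rose by 1.41 where the sum was 0.39. Of 38 hypoxia and glycolysis genes 22 were on the sum, 5 below and 2 above; the count above was 4 without Ep300-knockout replicate 3 and 1 without control replicate 1 or 3, Ep300-knockout replicate 2 or double-knockout replicate 1 or 2. Among 20 NF-kappaB genes 10 were on the sum and 5 above, with 2 or 3 above when any of control replicate 1 or 3, Ep300-knockout replicate 2, Crebbp-knockout replicate 1 or 3 or a double-knockout library was left out.

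The remaining lists were split or thinly called. Above, below and on the sum were 2, 3 and 3 of 12 melanocyte transcription factors, 4, 1 and 6 of 23 dedifferentiated melanoma genes, 4, 6 and 6 of 20 neural crest and neuronal genes, 4, 1 and 9 of 20 TGF-beta genes, 3, 3 and 10 of 20 G1 genes, 2, 1 and 17 of 25 deacetylases and corepressors, 5, 1 and 5 of 18 clock genes and 2, 1 and 4 of 12 retinoic acid genes. These counts moved with single libraries. Deacetylases above were 0 without control replicate 3 or double-knockout replicate 3, 1 without control replicate 1, Ep300-knockout replicate 2, Crebbp-knockout replicate 2 or double-knockout replicate 1. Retinoic acid genes above were 0 without Ep300-knockout replicate 2 or double-knockout replicate 3, and 1 without control replicate 1, Ep300-knockout replicate 1, Crebbp-knockout replicate 1 or 2, or double-knockout replicate 1 or 2. Clock genes above were 3 without control replicate 1 or 3, Ep300-knockout replicate 2 or double-knockout replicate 2. G1 genes below were 1 without control replicate 1 or 3, Ep300-knockout replicate 1 or 2, Crebbp-knockout replicate 3 or double-knockout replicate 1 or 2. Melanocyte factors on the sum were 5 without Ep300-knockout replicate 3. Of 41 cytosolic ribosomal proteins 31 were undetermined, 8 on the sum and 2 below, with a median interaction of -0.33. Below were 15 without control replicate 2, 3 without Ep300-knockout replicate 1 or 3 and at most 2 without any other library, and on the sum were 26 without Crebbp-knockout replicate 3, 13 without control replicate 1 and 3 to 9 without any other. Endothelial markers summed to at most 1.08 CPM and epithelial markers to at most 0.577 CPM in any library.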
